A study of Mus musculus with 24 samples.

Results

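Selenoprotein genes encode proteins that carry selenocysteine, an amino acid built from selenium. The genes described here are Selenov and 8 other members of this family (Selenop, Selenow, Selenom, Selenot, Selenof, Selenok, Selenos and Txnrd1), chosen by symbol from the 55385 genes of the count table. Selenov was selected on its rise in Ts65Dn in these libraries, so its values are given as a description with no test. The whole mouse family of 24 selenoprotein genes is given beside the members. RNA-Seq counts came from the hippocampus (HIP) and entorhinal cortex (EC) of 12 male mice aged 5 to 6 months, 6 Ts65Dn and 6 wild-type (wt) littermates, with 1 library per region and mouse. Both genotypes had the F1 B6C3B background. Ts65Dn mice carry in addition a freely segregating minichromosome with a segment of Mmu16 and the centromeric part of Mmu17, so that the genes on it are present in an extra copy. None of the 24 selenoprotein genes is on the list of 55 triplicated Mmu16 genes used as a check of the labels. Over those 55 genes the median ratio to the wt mean was 1.46 to 1.54 in 10 Ts65Dn libraries, but was 1.01 for HIP and 0.987 for EC in the libraries labelled Ts65Dn replicate 3. The label was kept, and the counts of calls are given with and without that mouse. The summed level of 7 hippocampal genes was 660.5 to 1071.3 CPM (counts scaled to library size) for HIP and 240.2 to 359.8 for EC. That of 7 cortical genes was 561.5 to 779.3 CPM in the EC and 133.2 to 238.3 in the HIP. In both genotypes 6 of the hippocampal genes were higher in the HIP and 1, Wfs1, was lower (wt medians 170.6 CPM in the HIP and 209.0 in the EC). Library totals were between 23128589 and 40476492 counts.

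Selenocysteine is inserted at an in-frame UGA codon, which elsewhere ends translation, with the help of a hairpin in the 3′ untranslated region of the mRNA and a dedicated tRNA and elongation factor. The liver and astrocytes secrete Selenop, which carries selenium to neurons, and the brain holds on to selenium when the supply is low. Selenov, Selenow, Selenot and Selenom have a thioredoxin-like fold, Selenof, Selenok, Selenos and Selenot reside in or at the endoplasmic reticulum (ER), and Txnrd1 reduces thioredoxin in the cytosol. Selenov is known mainly from the testis.

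The coding sequence around the first selenocysteine codon is shown for each member because this codon defines the family and its setting sorts the members into types. The lines read 5′ to 3′ on the coding strand, with 15 bases before the codon and at most 12 after it, up to the stop codon. Capitals mark TGA and, where one of the 3 codons before it encodes cysteine, that codon.
Selenov: atgtacTGTggcctcTGAagctatggcctt
Selenow: gtgtatTGTggagctTGAggctataagccc
Selenot: cagattTGTgtatccTGAgggtaccggcgg
Selenom: gagaccTGTggaggaTGAcagttgaatcgc
Selenof: cttgaagtcTGCggaTGAaaattggggagg
Selenop: cttcttcaagccagcTGAtacttgtgtctt
Selenok: ccaatggctggtggaTGAggaaggtaa
Selenos: ccatcatctggcggcTGAaactaa
Txnrd1: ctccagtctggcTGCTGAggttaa

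Selenov, Selenow, Selenot and Selenom share a cysteine codon 3 codons before TGA, the redox pair of the thioredoxin-like members. In Selenof the cysteine codon lies 2 codons before, and in Txnrd1 it is the codon just before. In Selenok, Selenos and Txnrd1 only 2, 1 and 1 codons follow TGA, so selenocysteine is near the end of these proteins. Selenop has 10 TGA codons of this kind and each other member has 1. In GENCODE M21 the selenocysteine annotation is attached to 24 genes, and these are the 24 genes of the family list. In Selenov the codon is number 255 of 328, in exon 2 of 6, at chr7:28288486-28288488 on the minus strand of GRCm38.

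Selenov itself spans chr7:28284652-28291186 on the minus strand, with 1452 bases of annotated exon, and no other annotated gene overlaps it. The RefSeq promoter is shown because Selenov is the member chosen for its genotype difference. The 250 bases before its start (chr7:28291187-28291436, GRCm38.p6, read on the minus strand) are given with capitals on the 1 match to GGGCGG, the GC box.
Selenov promoter: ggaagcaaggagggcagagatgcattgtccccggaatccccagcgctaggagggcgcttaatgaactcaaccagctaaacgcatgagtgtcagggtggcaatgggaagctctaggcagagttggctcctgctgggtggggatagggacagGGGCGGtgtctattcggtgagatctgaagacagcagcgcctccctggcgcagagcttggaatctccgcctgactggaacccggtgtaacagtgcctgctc
Searched on both strands of windows from 250 bases before to 50 after a start, GGGCGG was in 35.7% of all 32851 promoters. Of the 24 selenoprotein genes, 14 had it in at least 1 promoter. The share counts promoters and the latter counts genes, so these values are not on the same scale. TATAAA was in 13.6% of promoters, CCAAT in 37.4% and TGACNNNGC, the core of the antioxidant response element, in 12.4%, and Selenov matched none of these. Among the selenoprotein genes TGACNNNGC was found in 2, Txnrd1 and Selenok. A match of letters is a description of the sequence only.

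Selenov was near the limit of detection in wt and several-fold higher in Ts65Dn. In the wt HIP replicates 1 to 6 had 5, 9, 4, 6, 5 and 4 counts, and in the Ts65Dn HIP they had 24, 25, 7, 18, 16 and 14. In the wt EC the counts were 3, 7, 9, 5, 2 and 3, and in the Ts65Dn EC 41, 46, 11, 33, 21 and 15. The lowest Ts65Dn value in each region was that of the mouse labelled replicate 3, whose 7 counts in the HIP lay inside the wt range of 4 to 9. In the EC its 11 counts lay just above the highest wt library, with 9.

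Scaled to library size, Selenov in the HIP was at 0.607 ± 0.226 CPM in Ts65Dn and at 0.174 ± 0.0313 in wt (SD over 6 mice). In the EC it was at 0.916 ± 0.428 CPM in Ts65Dn and 0.162 ± 0.0696 in wt. On this scale the 6 Ts65Dn and 6 wt libraries did not overlap in either region, although the margin in the HIP was narrow, with 0.242 CPM in the lowest Ts65Dn library and 0.213 in the highest wt library. Such separation was found for 1.67% of the genes tested for HIP and 2.46% for EC, and for Selenov it is part of how the gene was chosen. The ratio of the mean CPM was 3.48 for HIP and 5.64 for EC, and 3.9 and 6.28 without the mouse labelled Ts65Dn replicate 3. Summed over the 6 libraries of a group, the counts were 104 in Ts65Dn and 33 in wt for HIP, and 167 and 29 for EC. On the log2 CPM scale with a prior count of 2 the difference was 1.40 for HIP and 2.02 for EC. The prior count pulls the difference of so low a gene toward 0. The values were 1.62 and 2.33 with a prior count of 0.5 and 1.12 and 1.63 with one of 5. Since the gene was picked for its rise, the ratios and differences may also be too high. The filter on low counts kept Selenov in the EC and removed it in the HIP.

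**Figure D1:**
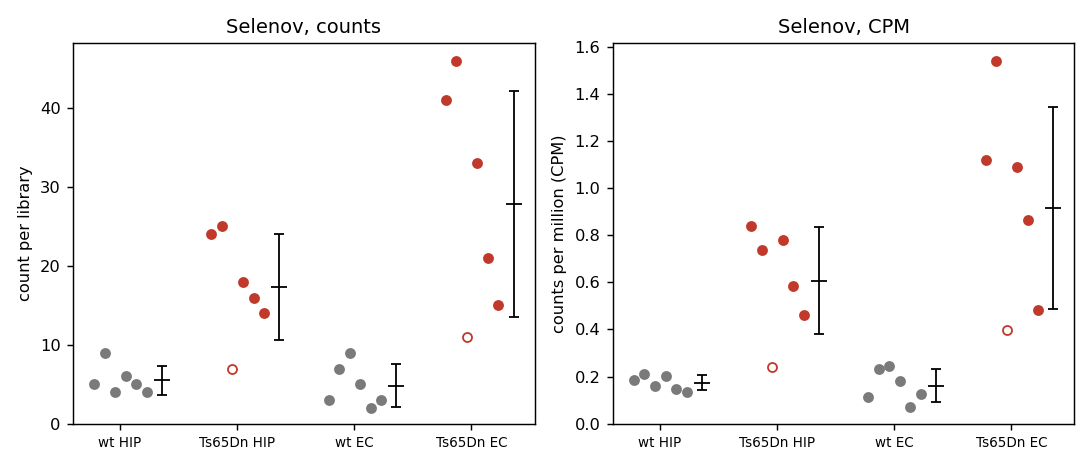
Selenov in each library, as counts (left) and CPM (right), by genotype and region. Points are the 6 libraries of a group in replicate order, open points are the libraries labelled Ts65Dn replicate 3, and bars give the mean and SD; wt libraries lay at 2 to 9 counts and Ts65Dn libraries at 7 to 46, with the open point lowest in each Ts65Dn group.

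The Ts65Dn mice kept much the same order for Selenov in the HIP and EC. Ordered by CPM from the highest, the replicates were 1, 4, 2, 5, 6 and 3 for HIP and 2, 1, 4, 5, 6 and 3 for EC. In 6 of 6 Ts65Dn mice the EC was above the HIP, and in 2 of 6 wt mice. The counts of 2 to 9 per wt library leave little room to see such a difference in wt. Genes known from the testis were mostly absent: Tnp1 and Akap4, of sperm chromatin and the sperm tail, were at 0 in all 24 libraries, and Prm1, Prm2 and Odf1 reached at most 0.0966, 0.0338 and 0.0824 CPM. The germ cell gene Ddx4 was at 0.44 to 4.72 CPM, and of the 6 genes of this list it was the 1 that could be tested. It was not called in either region.

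Genes around Selenov did not pass the test between genotypes. The neighbours were 14 other annotated genes whose lower coordinate lies within 100 kb of Selenov on either side. Of these, 9 were tested in both regions and 0 were called by edgeR or DESeq2 in either region. Beside this, edgeR called 1.04% of 17355 genes for HIP and 2.5% of 17049 for EC. At an unadjusted p under 0.05 there were 3 for HIP and 2 for EC, beside 14.8% and 19.0% of all genes. The log2 fold changes of the 9 ranged from -0.09 to 0.37 for HIP and from -0.05 to 0.67 for EC. The highest in the EC belonged to Dll3, a Notch ligand whose 3′ end lies 2366 bases upstream of the Selenov start on the same strand, and which is named for this place after its values were seen. In the EC Dll3 was at 0.684 to 1.43 CPM in wt (18 to 39 counts) and at 1.26 to 2.18 CPM in Ts65Dn (39 to 62 counts), with overlapping groups and a log2 fold change of 0.67 (adjusted p = 0.102 by edgeR, standard error 0.21). In the HIP it had 28 to 46 counts in wt and 25 to 58 in Ts65Dn, also overlapping, and a log2 fold change of 0.22 (adjusted p = 0.689 by edgeR). Without the mouse labelled Ts65Dn replicate 3, edgeR again called 0 of the 9 neighbours in each region.

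**Figure D2:**
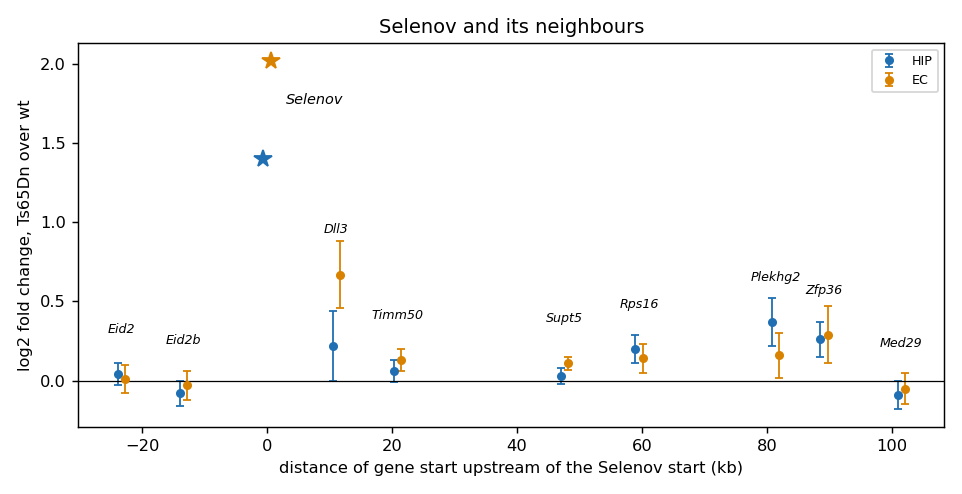
Log2 fold change of Ts65Dn over wt for the 9 tested neighbours of Selenov, by the distance of each gene's start upstream of the Selenov start in kb (negative values are downstream), with standard errors as bars. Stars give the untested Selenov difference, 1.40 for HIP and 2.02 for EC, and the neighbours lay between -0.09 and 0.67.

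The 5 genes whose levels followed Selenov most closely over the 24 libraries were found by Spearman correlation of log2 CPM among 16592 genes. They were Rsph3a (0.84), a radial spoke protein gene at chr17:7945614-7979824, Hnrnpul1 (0.84), which encodes an RNA-binding protein, at chr7:25721165-25754757, the processed pseudogene AC124740.2 (0.83), Sod1 (0.83), the cytosolic superoxide dismutase gene of the triplicated Mmu16 list, and Zdhhc14 (0.83), a palmitoyltransferase gene at chr17:5492557-5753811. The paper lists Rsph3a and Zdhhc14 among the genes of the centromeric part of Mmu17, which Ts65Dn mice also carry in an extra copy. The libraries shared the split into genotypes, and 2 libraries came from each mouse. The correlations therefore describe a common difference between Ts65Dn and wt libraries. Over the same libraries the other selenoprotein genes had correlations with Selenov between -0.49 (Selenop) and 0.43 (Gpx4). Over the 22 libraries left without the mouse labelled Ts65Dn replicate 3 the same 5 genes were at 0.80 to 0.86. They had been picked with these libraries, so this is no separate check.

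Selenow, a small cytosolic protein, was by far the highest of the family in both regions. Per kb of exon, its level was 795.1 ± 36.3 CPM in the wt HIP (SD, n = 6), and the next gene, Selenop, had 76.5 ± 3.2 with no overlap of libraries. Selenow took 29.4% to 38.0% of all counts on selenoprotein genes in a library. The family as a whole took 0.165% to 0.195% of the counts in a library. After Selenop in the wt HIP came Selenot with 65.7 ± 5.45, Selenok with 47.5 ± 2.58 and Selenom with 47.4 ± 2.8 CPM per kb. Libraries of Selenop and Selenot overlapped, as did those of Selenok and Selenom, while Selenot and Selenok were apart. Selenos (27.9 ± 1.33) and Selenof (26.1 ± 1.4) overlapped each other, and Txnrd1 was at 9.25 ± 0.364 CPM per kb. Selenov, at 0.12 ± 0.0216 CPM per kb in the wt HIP and 0.631 ± 0.295 in the Ts65Dn EC, was the 22nd of the 24 genes in each of these groups, above Gpx2 and Dio1. These last 2 had at most 7 and 3 counts in a library and did not pass the filter on low counts. Copies can take reads from Selenok and Selenot. The counts on 6 processed copies of Selenok were at most 8 and those on Selenot-ps at most 13 per library, beside at least 1996 on Selenok and 3688 on Selenot, and Ccdc152, antisense to Selenop, had 2 to 19 beside at least 4123. The counts on the copies cannot show how many reads that fit both a gene and its copy were left uncounted.

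**Figure D3:**
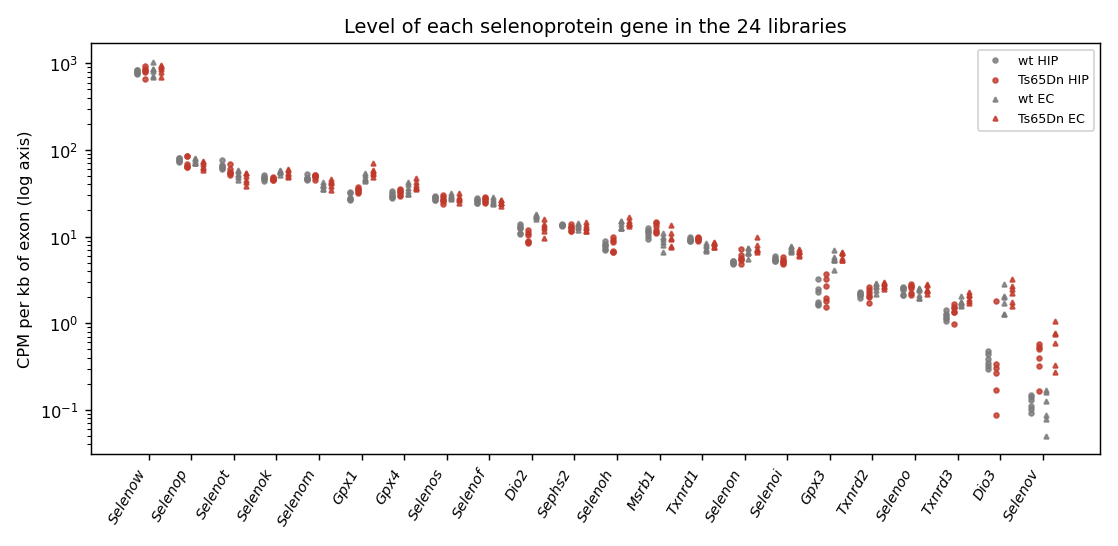
Level of 22 selenoprotein genes in every library, as CPM per kb of annotated exon on a log axis, ordered by the mean over all libraries. Circles are HIP and triangles EC libraries, grey wt and red Ts65Dn; Selenow lay apart at the top, and Selenov lay at the bottom with its Ts65Dn libraries above its wt libraries.

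None of the 8 other members was called between Ts65Dn and wt. By edgeR's quasi-likelihood test at an adjusted p under 0.05, 0 of 8 were called for HIP, beside 1.04% of all genes tested, and 0 of 8 for EC, beside 2.5%. DESeq2 also called 0 in each, beside 3.5% and 6.28%. At these shares a count of 0 among 8 genes does not set the members apart from other genes. At an unadjusted p under 0.05 there was 1 member in each region, Selenot for HIP and Selenop for EC, beside 14.8% and 19.0% of all genes. The members' log2 fold changes ran from -0.20 to 0.05 in the HIP, with a median of -0.02, and from -0.17 to 0.09 in the EC, with a median of -0.05, beside a median of 0 over all genes in both regions. In each region the 6 Ts65Dn and 6 wt libraries overlapped for all 8 genes, and 1.67% of all genes for HIP and 2.46% for EC did not overlap. Without the mouse labelled Ts65Dn replicate 3, edgeR again called 0 of 8 in each region, and the log2 fold changes ran from -0.19 to 0.09 for HIP and from -0.20 to 0.11 for EC.

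Selenop, the secreted selenium carrier, had a lowest, median and highest level of 164.9, 189.2 and 211.2 CPM in the Ts65Dn EC and 200.2, 208.3 and 228.4 in the wt EC. Its log2 fold change was -0.17 in the EC (95% interval -0.30 to -0.04, adjusted p = 0.149 by edgeR) and -0.09 in the HIP (-0.27 to 0.09, adjusted p = 0.666). Most Ts65Dn EC libraries lay below the wt libraries, and replicate 3 was the highest of the Ts65Dn group.

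Selenot, an oxidoreductase of the ER membrane found in neurons and endocrine cells, was at 177.7, 187.0 and 236.8 CPM in the Ts65Dn HIP (lowest, median and highest) and at 207.8, 221.8 and 259.8 in the wt HIP. The log2 fold change was -0.20 in the HIP (95% interval -0.36 to -0.05, adjusted p = 0.211 by edgeR) and -0.15 in the EC (-0.34 to 0.04, adjusted p = 0.383). The median was lower in Ts65Dn and the ranges overlapped.

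Of the other thioredoxin-like members, Selenow and Selenom had values nearer to 0 than those of Selenot. Selenow's log2 fold change was 0.04 in the HIP (95% interval -0.11 to 0.18) and 0.04 in the EC (-0.17 to 0.24). Selenom, an ER protein, had 0.05 (-0.05 to 0.15) and 0.09 (-0.06 to 0.24). The members of ER quality control were as close to 0. Selenof, which binds the glucosyltransferase Uggt1, had 0.02 (-0.09 to 0.12) for HIP and -0.06 (-0.18 to 0.07) for EC. Selenok, a partner of the palmitoyltransferase Zdhhc6, had -0.05 in both regions (-0.14 to 0.04 and -0.16 to 0.07), and Selenos, which joins Vcp to the Derlin proteins, had -0.06 (-0.19 to 0.06) and -0.09 (-0.23 to 0.04). Txnrd1 had 0.02 (-0.06 to 0.10) and 0.09 (-0.04 to 0.22).

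Among all selenoprotein genes other than Selenov, 21 of 23 passed the filter on low counts, and Dio2 was the 1 called between genotypes. In the EC 1 of 21 was called and it was lower in Ts65Dn, beside 2.5% of all genes tested. In the HIP edgeR called 0 of 21, beside 1.04%, whereas DESeq2 called 2, Dio2 lower and Gpx1 higher, beside 3.5% of all genes. DESeq2 called Dio2 alone in the EC, beside 6.28%. At an unadjusted p under 0.05 there were 6 of 21 for HIP and 4 of 21 for EC, beside 14.8% and 19.0% of all genes. The median log2 fold change of the 21 was 0.02 for HIP and 0.08 for EC. Without the mouse labelled Ts65Dn replicate 3 the counts were again 0 and 1, while the share of all genes called was 1.82% for HIP and 2.79% for EC.

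Dio2, the deiodinase that makes active thyroid hormone in astrocytes, had a lowest, median and highest level of 56.1, 75.1 and 92.8 CPM in the Ts65Dn EC and 92.8, 100.1 and 105.9 in the wt EC. Every Ts65Dn library was below every wt library, though the nearest pair was equal to 3 digits. The means were 74.8 ± 12.6 and 100.3 ± 4.6 CPM (SD over 6 mice), which gave -0.43 as the log2 fold change (95% interval -0.63 to -0.23, adjusted p = 0.0285 by edgeR). In the HIP the levels were 49.3 to 68.5 CPM in Ts65Dn and 62.1 to 82.0 in wt, which overlapped, with a log2 fold change of -0.33 (-0.52 to -0.13, adjusted p = 0.111 by edgeR). The call in the EC was kept in 7 of 12 fits that left out 1 mouse, with adjusted p-values from 0.0117 to 0.0688 by edgeR (0.0427 without the mouse labelled Ts65Dn replicate 3). It was lost without Ts65Dn replicate 1 or wt replicate 1, 3, 4 or 5, with offsets for length and GC content (adjusted p = 0.0776 by edgeR), and with a block for the replicate number (adjusted p = 0.079 by edgeR). The summed level of 7 astrocyte markers was 4297.6 to 5821.3 CPM in the Ts65Dn EC (median 4962.6) and 5624.2 to 6446.4 in the wt EC (median 5873.9). In the Ts65Dn EC this sum was highest in replicate 3, where Dio2 was at 67.6 CPM, and lowest in replicate 6, where Dio2 was at 72.5. Most of the sum came from Slc1a2, with a median of 3647.1 CPM in the Ts65Dn EC. Of these 7 genes in the EC, edgeR called 0 and DESeq2 3, and 4 passed at an unadjusted p under 0.05. The shares of all genes were 2.5%, 6.28% and 19.0%. Without the mouse labelled Ts65Dn replicate 3, edgeR called 1, Slc1a2, lower in Ts65Dn, beside 2.79% of all genes. In that fit 5 of the 7 had an unadjusted p under 0.05, beside 19.0%. In the HIP the sums were 4529.6 to 5392.6 CPM in Ts65Dn and 4761.4 to 5598.0 in wt. The part of astrocytes in the Dio2 and Selenop values was not tested, and in bulk tissue fewer cells of a type and less RNA per cell cannot be told apart.

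Gpx1, the cytosolic glutathione peroxidase, was at 45.7, 50.5 and 53.6 CPM in the Ts65Dn HIP (lowest, median and highest) and at 37.6, 39.7 and 47.6 in the wt HIP. Its log2 fold change was 0.26 in the HIP (95% interval 0.13 to 0.40, adjusted p = 0.073 by edgeR) and 0.22 in the EC (0.05 to 0.39, adjusted p = 0.144). It was called in the HIP without wt replicate 4 (adjusted p = 0.0359 by edgeR) and by DESeq2 (adjusted p = 0.00817), and it was not called without the mouse labelled Ts65Dn replicate 3 (adjusted p = 0.0835 by edgeR).

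**Figure D4:**
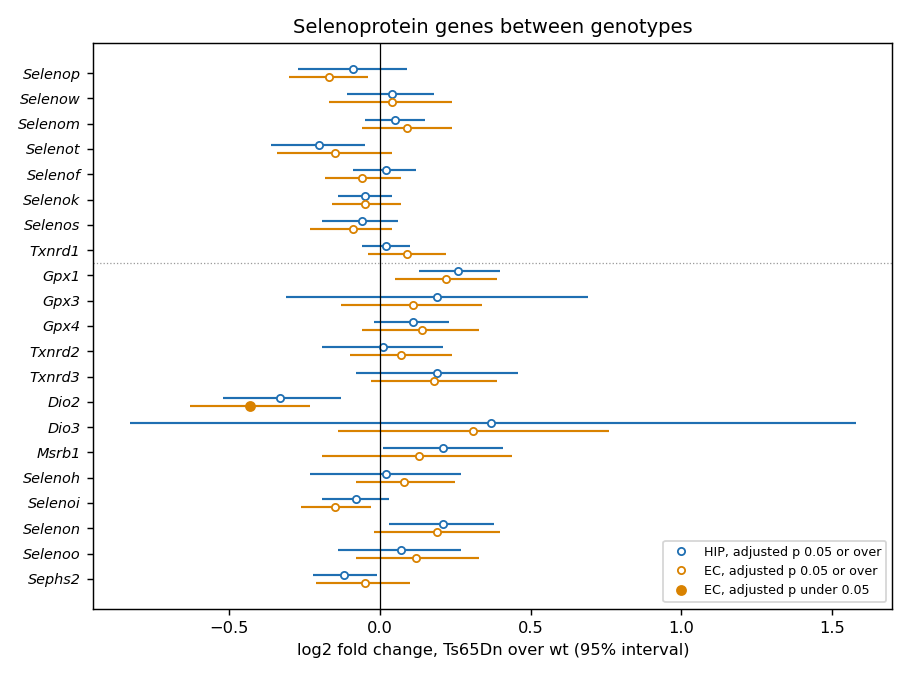
Log2 fold change of Ts65Dn over wt, with 95% intervals, for 21 selenoprotein genes in the HIP (blue) and EC (orange), the 8 members above the dotted line and Selenov left out. Filled points passed an adjusted p under 0.05, which was the case for Dio2 in the EC, at -0.43.

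The pathway lists were read against the same shares of all genes, 1.04% for HIP and 2.5% for EC by edgeR, 3.5% and 6.28% by DESeq2, and 14.8% and 19.0% at an unadjusted p under 0.05. Of 9 genes of selenocysteine synthesis and insertion, 0 were called between genotypes in either region by edgeR or DESeq2, and 0 and 1 had an unadjusted p under 0.05 in the HIP and EC. Of the selenium uptake receptors Lrp2 and Lrp8, 2 were tested for HIP and 1 for EC, with 0 called. Of 7 ER partners of Selenok, Selenos and Selenof, 0 were called by either tool, with 1 and 2 at an unadjusted p under 0.05. Of 12 thioredoxin and glutathione genes, 0 were called in the HIP by edgeR and 1 by DESeq2, and 1 was called in the EC by both tools, with 4 and 2 at an unadjusted p under 0.05. The gene was Gclm, the modifier subunit of the enzyme that starts glutathione synthesis. It was at 54.3 ± 2.97 CPM in the Ts65Dn EC and 65.6 ± 3.09 in the wt EC, with no overlap, and its log2 fold change was -0.28 (adjusted p = 0.0145 by edgeR, standard error 0.05). In the HIP its log2 fold change was -0.22 (adjusted p = 0.064 by edgeR, standard error 0.05), and without the mouse labelled Ts65Dn replicate 3 it was called there as well (-0.24, adjusted p = 0.0486 by edgeR). No other gene of these 4 lists was called between genotypes by edgeR without that mouse.

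The regions differed in more of these genes than the genotypes did. HIP and EC of the same mice were compared within each genotype, with a term for each mouse, and 15 of 21 selenoprotein genes were called in wt and 15 of 21 in Ts65Dn. This stood beside 58.6% and 56.5% of 18109 genes, so calls were common for all genes. In both genotypes 4 of the 21 were higher in the HIP and 11 lower. Of all genes, 30.3% were higher and 28.3% lower in the HIP of wt, and 29.5% and 27.0% in Ts65Dn. The share of calls that were higher in the HIP was 51.7% in wt and 52.2% in Ts65Dn over all genes, and 41.7% and 42.6% with offsets for gene length, which left the selenoprotein counts at 4 and 11. The median log2 difference of the 21 genes was -0.23 in each genotype, beside 0.01 over all genes. Without the mouse labelled Ts65Dn replicate 3 the counts were again 4 higher and 11 lower in each genotype, beside 59.7% of all genes called in wt and 52.0% in Ts65Dn, and Selenom, Selenot, Txnrd1 and Selenok were again called in both.

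Of the 8 members, Selenom, Selenot and Txnrd1 were higher in the HIP and Selenok was lower, in both genotypes. Txnrd1 was at 65.6 ± 2.58 CPM in the wt HIP and 53.8 ± 4.62 in the wt EC (SD, n = 6), higher in the HIP in 6 of 6 wt and 6 of 6 Ts65Dn mice, with log2 differences of 0.29 (adjusted p = 2.29e-05 by edgeR) and 0.21 (adjusted p = 0.000419). Selenot was at 225.8 ± 18.7 CPM in the wt HIP and 179.5 ± 16.7 in the wt EC, higher in the HIP in 6 of 6 wt and 5 of 6 Ts65Dn mice. Its log2 differences were 0.33 (adjusted p = 0.000461 by edgeR) and 0.28 (adjusted p = 0.00208), and with offsets for length and GC content the latter was 0.11 and was not called (adjusted p = 0.0642). Selenom was at 70.1 ± 4.14 and 57.1 ± 4.15 CPM in the wt HIP and EC, with log2 differences of 0.30 in wt (adjusted p = 0.000551 by edgeR) and 0.26 in Ts65Dn (adjusted p = 0.00174). In the mouse labelled Ts65Dn replicate 3 Selenom went the other way, at 66.2 CPM in the HIP and 69.2 in the EC. Every other mouse had more Selenom in the HIP. Selenok went the other way in 12 of 12 mice, with 89.8 ± 4.87 CPM in the wt HIP and 105.0 ± 4.47 in the wt EC and a log2 difference of -0.23 in each genotype (adjusted p = 0.000742 and 0.000732 by edgeR). Selenop, Selenow, Selenof and Selenos were not called, with log2 differences from -0.07 to 0.10, and that of Selenof in Ts65Dn was near the threshold at 0.09 (adjusted p = 0.0522 by edgeR).

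The largest differences between regions lay in genes outside the 9 members. Dio3, the deiodinase that inactivates thyroid hormone, had log2 differences of -2.25 in wt and -2.58 in Ts65Dn, from 3.79 ± 1.2 CPM in the wt EC to 0.768 ± 0.143 in the wt HIP. Gpx3, the secreted glutathione peroxidase, had -1.36 and -1.31, Selenoh, a nuclear redox protein, -0.80 and -0.88, and Gpx1 -0.75 and -0.71. Lower in the HIP by smaller amounts were Txnrd3 (-0.52 in both genotypes), Dio2 (-0.49 and -0.38), Selenon of the ER membrane (-0.39 in both), Selenoi of phospholipid synthesis (-0.38 and -0.32), the mitochondrial reductase Txnrd2 (-0.28 and -0.35) and Gpx4, which reduces lipid peroxides (-0.24 and -0.28). Msrb1, a methionine sulfoxide reductase, was higher in the HIP by 0.31 and 0.39, and Selenoo and Sephs2 were not called. For the pathway genes, 6 of 9 genes of selenocysteine synthesis and insertion were called in wt (5 higher in the HIP) and 3 of 9 in Ts65Dn (2 higher), 8 of 12 thioredoxin and glutathione genes were called in each genotype, and 5 of 7 and 4 of 7 ER partners, beside 58.6% of all genes in wt and 56.5% in Ts65Dn. Both receptors were higher in the HIP in wt, and of these Lrp2 in Ts65Dn.

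Cell types differed between the regions as well. The summed level of 6 oligodendrocyte markers was 6693.3 to 10511.8 CPM for HIP and 1385.2 to 2856.7 for EC, that of 6 microglia markers 253.6 to 305.0 and 278.6 to 404.6, and that of 5 endothelial markers 189.1 to 234.4 and 204.0 to 298.7. Choroid plexus markers ranged from 52.1 to 5088.8 CPM for HIP and from 8.7 to 49.9 for EC, and blood markers from 57.3 to 153.0 and from 104.5 to 544.2. Their part in the region differences was not tested. Between genotypes in the EC, edgeR called 1 of 5 striatum markers, beside 2.5% of all genes, and DESeq2 called the same gene. This was Drd2, with a median of 3.66 CPM in Ts65Dn and 1.21 in wt. The summed level of the 5 was 155.2 to 228.4 CPM in the Ts65Dn EC and 167.2 to 195.3 in the wt EC. The part of such tissue in the EC genotype results was not tested.

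**Figure D5:**
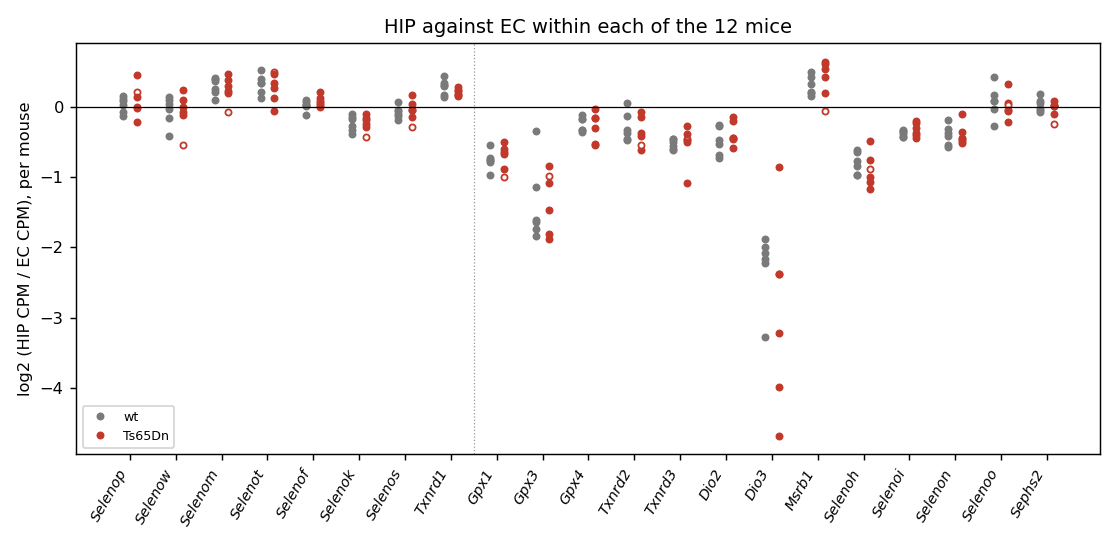
Difference between HIP and EC within each mouse, as log2 of the ratio of CPM, for 21 selenoprotein genes, the 8 members left of the dotted line. Each point is 1 mouse, grey wt and red Ts65Dn, open for the mouse labelled Ts65Dn replicate 3; Txnrd1 lay above 0 and Selenok below 0 in all 12 mice, and Dio3 reached the lowest values.

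Whether the genotype difference itself differed between regions was tested as an interaction. Of 21 selenoprotein genes 0 were called by edgeR or DESeq2 and 0 had an unadjusted p under 0.05 by edgeR, beside 0% of 18109 genes called and 4.1% at the unadjusted threshold. The interaction log2 values of the 8 members ran from -0.08 (Txnrd1, 95% interval -0.20 to 0.05) to 0.07 (Selenop, -0.13 to 0.26). For Selenov the difference between the 2.02 of the EC and the 1.40 of the HIP was not tested.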

How the data were processed

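The authors aligned single-end reads of 50 bases to GRCm38 (Ensembl release 99) with Hisat2 and deposited raw counts per gene from HTSeq-count, without normalization. The strand setting is not given in the sources used here, so reads of antisense partners may be shared. The labels name a stranded mRNA kit and the methods a total RNA kit (TruSeq Stranded, Ribo-Zero Gold), and both call the molecules polyA RNA. The deposited tables of the authors' own comparisons hold fold changes, p-values and FCROS scores and were not used. All 24 columns of counts were used, 0 rows named no gene, 0 pairs of libraries were identical, and 99.6% of the genes matched GENCODE M21, which gave coordinates and exon lengths. Ts66Yah mice were not analysed here.

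Genotypes were compared within each region by edgeR's quasi-likelihood test (edgeR 4.0.16, R 4.3.3) on 6 against 6 libraries, with filterByExpr, TMM and Benjamini-Hochberg adjustment over all genes tested. Regions and the interaction were fitted on 24 libraries with a term for each mouse, since the labels give both libraries of a mouse the same number. Levels are TMM-scaled CPM. DESeq2 1.42.0 was an alternative. Others were DESeq2 size factors, no filter, at least 10 counts in every library, offsets for length, the replicate number as a block, and leaving out each mouse; offsets for length and GC content were chosen after seeing the data. The fits were tested on simulated data.

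The members and gene lists were chosen with earlier results of these data known. Named were all 9 members, other selenoprotein genes called in a contrast, up to 5 called genes of each pathway list, called genes within 100 kb of Selenov, and the 5 genes most correlated with Selenov. Selenoo, Sephs2, Dll3 and the markers were named after their values were seen. Of the 9 members, depth limits precision most for Selenov, with 2 to 46 counts per library. The labels do not say that same-numbered wt and Ts65Dn mice belong together. The p-values between genotypes measure the spread between these mice. Those between regions and for the interaction measure how the difference of HIP and EC within a mouse varied over the mice.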

Additional observations from a re-analysis of the deposited data

Results flagged for a closer look

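In 88 sets of 6 libraries (22 selenoprotein genes in 4 groups), 3 held a library far from the others, where chance gives about 1 in 20. Selenom in the wt HIP was at 78.3 CPM in replicate 1 and 66.5 to 69.4 in the other 5 libraries. Txnrd3 in the wt EC was at 5.89 CPM in replicate 2 and 4.47 to 4.94 in the others. Dio3 in the Ts65Dn HIP was at 3.64 CPM (104 counts) in replicate 1 and 0.177 to 0.694 in the others. That library also had the highest summed level of choroid plexus markers of its group (5088.8 CPM, median 1922.8) and of meningeal fibroblast markers (159.7 CPM, median 77.8), whose part in the Dio3 value was not tested.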

How the results depend on the processing

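Over the alternatives run, the Selenov log2 difference ran from 1.12 (prior count of 5) to 1.62 for HIP and from 1.63 to 2.33 for EC. Its direction is no check, since the gene was chosen for its rise and the groups did not overlap in CPM. The count of selenoprotein genes called between genotypes in the HIP was 0, and 2 with DESeq2 (Gpx1 and Dio2), with 0 to 1 when 1 mouse was left out (Gpx1, without wt replicate 4). In the EC it was 1, and 0 with offsets for length and GC content, with 0 to 1 when 1 mouse was left out. A block for the replicate number gave 0 in the EC (Dio2 log2 fold change -0.45, adjusted p = 0.079 by edgeR) and 0 in the HIP, and lowered the calls over all genes to 29 for HIP and 36 for EC. The deviations of same-numbered wt and Ts65Dn libraries had correlations from -0.22 to 0.16 for HIP and from -0.1 to 0.17 for EC. These values cannot settle whether such mice share more than a number. The counts between regions were 14 to 16 in all alternatives, and the interaction stayed at 0. Directions turned for values near 0 that were not called. With offsets for length and GC content these were Selenom (-0.01, HIP) and Selenow (-0.0032, EC) between genotypes, and between regions Selenop (-0.08 in wt, -0.02 in Ts65Dn), Selenow (0.03, 0.04) and Selenof (-0.10, -0.03). With length offsets in wt they were Selenop (-0.03) and Selenof (-0.06). With 1 mouse left out, the genotype values ran from -0.00051 to 0.09 (Selenow, HIP), from -0.0044 to 0.04 (Selenof, HIP) and from -0.004 to 0.11 (Selenow, EC), and the region values from -0.08 to 0.03 (Selenow, wt), from -0.12 to 0.03 (Selenow, Ts65Dn) and from -0.09 to 0.00042 (Selenos, Ts65Dn). Over all genes, the calls in the EC were 426 (46.0% higher), 131 (59.5% higher) with offsets for length and GC content and 1071 with DESeq2, and in the HIP 181, 65 and 607. The depth limits Selenov, whose wt libraries hold 2 to 9 counts.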
